A study of Mus musculus with 12 samples.

Results

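Imprinted growth genes, 9 in number, and glypican 3 were followed through the development of the choroid plexus, the secretory epithelium with vascular stroma that makes cerebrospinal fluid. The 10 genes are H19, Meg3, Dlk1, Peg3, Peg10, Ndn, Plagl1, Slc38a4, Grb10 and Gpc3, found by symbol among the 52459 symbols of the expression table. All 10 passed the filter on low values, and 9 of them had at least 1 TPM in every library. TPM is transcript abundance corrected for transcript length and scaled to the same sum in each library.

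Imprinted genes are transcribed from the copy inherited from 1 parent, and many of them act on prenatal growth. They sit in clusters in which a control region, methylated in 1 parental germ line, sets which copy is used. The parental copy named for a gene below is that described for mouse in general. It was not measured in these libraries, whose values are per gene symbol. Several of these genes are known to be expressed together in growing organs and to be turned down after birth. Glypican 3 is not imprinted in this sense, but its loss causes overgrowth, and it lies on the X chromosome.

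Choroid plexus was taken from mice of strain B6 in the embryo (E12.5), at birth (P0), at 14 days of age (P14) and as adults of 6 months (A6m), with 3 libraries per age. The labels give no genotype beyond the strain, neither sex nor ventricle, and the separate specimens are not said to be single animals. The spread between libraries may therefore include pooled tissue. A mutant of the same series was not analysed here.

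The tissue label was checked against markers. The summed level of 12 choroid plexus epithelium markers was 12958 to 23896 TPM at E12.5, 149504 to 151213 TPM at P0, 180883 to 196201 TPM at P14 and 173752 to 179881 at A6m. Most of this sum is Ttr, which encodes transthyretin, the thyroid hormone carrier. Without Ttr the other 11 markers summed to 1758 to 2893 TPM at E12.5, 8049 to 8312 TPM at P0, 26307 to 29307 TPM at P14 and 33652 to 36316 TPM at A6m, and 10 of them had at least 1 TPM in every E12.5 library. In E12.5 replicate 1, which stood apart, the small-RNA feature Mir6236 had 93141 TPM and was the most abundant feature. Xist, the RNA that coats the silenced X chromosome in female cells, had 139, 0.389 and 89.5 TPM in E12.5 replicates 1, 2 and 3, 0.430 to 0.689 TPM at P0, 0.515 to 0.808 TPM at P14 and 148.8 to 155 TPM at A6m. The Y-linked Ddx3y had 9.26, 54.4 and 50.9 TPM at E12.5, 108 to 117 TPM at P0, 80.1 to 93.2 TPM at P14 and 0.122 to 0.366 TPM at A6m. The A6m libraries thus differ from the P0 and P14 libraries in sex-linked transcripts as well as in age. Age and sex therefore cannot be told apart at A6m against P14. The E12.5 libraries differ in these transcripts among themselves. Replicates 1 and 3 of E12.5 held both Xist and Ddx3y at 9.26 TPM or more, unlike any library of the later ages.

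In the mouse genome (GRCm38, GENCODE M21 gene models) H19 spans chr7:142575529-142578143 on the minus strand and lies 72622 bp from Igf2, which encodes a fetal growth factor. Dlk1 at chr12:109452823-109463336 and Meg3 at chr12:109541001-109571726 lie 77664 bp apart on the plus strand. Gpc3 at chrX:52272426-52613950 and its relative Gpc4 lie 107173 bp apart on the minus strand. Peg10 at chr6:4747306-4760517 starts 98 bp from Sgce. The others are Peg3 at chr7:6703892-6730431, Ndn at chr7:62346569-62350262, Plagl1 at chr10:13060504-13131694, Slc38a4 at chr15:96994820-97055956 and Grb10 at chr11:11930508-12038683. For 5 of the 10 genes (H19, Meg3, Ndn, Plagl1 and Gpc3) a gene on the opposite strand overlaps. Whether quantification used strand is not given in the sources used here, so reads of such partners may not be separated.

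Start-site sequences from RefSeq (GRCm38.p6, 250 bases before to 50 after the start) were found for 8 of the 10 genes, in 12 windows. H19 and Peg10 had no entry. Of these windows 4 are shown because they belong to genes with contrasting courses, namely Meg3 and Dlk1 as neighbours that separate, Peg3, whose course is like that of Meg3 until P14, and Gpc3, which has the largest fall after birth. Capitals mark matches, on either strand, to the TATA box letters TATAAA, the box CCAAT, the cAMP response element TGACGTCA, the motif TGCCGC of the imprint-keeping factor ZFP57 and the motif GGGGCCCC of PLAGL1.

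Meg3, chr12:109540746-109541045, plus strand: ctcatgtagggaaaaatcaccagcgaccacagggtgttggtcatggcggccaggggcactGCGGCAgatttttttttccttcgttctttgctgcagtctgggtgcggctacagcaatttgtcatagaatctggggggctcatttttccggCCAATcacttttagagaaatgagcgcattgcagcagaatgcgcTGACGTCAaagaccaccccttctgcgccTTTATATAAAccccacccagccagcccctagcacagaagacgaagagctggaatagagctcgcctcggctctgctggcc
Dlk1, chr12:109452573-109452872, plus strand: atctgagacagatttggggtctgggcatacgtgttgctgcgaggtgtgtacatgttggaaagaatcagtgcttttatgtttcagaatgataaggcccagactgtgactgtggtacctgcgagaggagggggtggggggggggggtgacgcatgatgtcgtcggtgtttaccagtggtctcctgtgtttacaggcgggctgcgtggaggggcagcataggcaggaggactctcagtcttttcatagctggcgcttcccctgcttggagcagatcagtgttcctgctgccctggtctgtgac
Peg3, chr7:6730370-6730669, minus strand: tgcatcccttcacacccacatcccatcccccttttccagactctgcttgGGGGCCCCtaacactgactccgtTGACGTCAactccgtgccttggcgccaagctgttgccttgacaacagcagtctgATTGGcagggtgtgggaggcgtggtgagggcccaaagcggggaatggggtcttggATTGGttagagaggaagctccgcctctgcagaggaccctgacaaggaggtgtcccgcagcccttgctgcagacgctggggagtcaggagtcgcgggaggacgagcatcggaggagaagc
Gpc3, chrX:52613925-52614224, minus strand: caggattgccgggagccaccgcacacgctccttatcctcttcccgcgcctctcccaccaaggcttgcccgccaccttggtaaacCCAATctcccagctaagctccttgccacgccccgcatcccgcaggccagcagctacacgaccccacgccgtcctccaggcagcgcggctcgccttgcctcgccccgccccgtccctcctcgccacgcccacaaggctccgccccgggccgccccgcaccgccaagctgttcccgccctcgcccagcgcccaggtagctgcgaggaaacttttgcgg

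Among all 32851 windows of this kind TGACGTCA was present in 1.79%, GGGGCCCC in 1.08%, TGCCGC in 11.6%, TATAAA in 13.6% and CCAAT in 37.4%. TGACGTCA was found for Meg3, at -57 to -50 from the start, and for Peg3, at -178 to -171. GGGGCCCC was found for Peg3 only, among the 8 genes with a window, at -201 to -194. TATAAA in the Meg3 window lay at -25 to -20, overlapped by a match on the other strand at -29 to -24. TGCCGC was present for Meg3, Plagl1 and Grb10. The Dlk1 window held none of the 5 motifs. Neither did the Ndn window or the second windows of Meg3 and Grb10, which are not shown. The Gpc3 window had 70.7% G or C and an observed over expected CpG ratio of 0.919. These values were 53.7% and 0.602 for the Meg3 window shown, 50.3% and 0.0588 for its second window, and 55.7% and 0.427 for Dlk1. Medians over all windows were 52.7% and 0.384. The motifs were chosen after the windows had been seen, and a match is a description of letters, not a binding site.

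H19 also carries a microRNA, miR-675, within its transcript. Its mature arms are shown with the seed (bases 2 to 8) in capitals because the level of H19 is all that these libraries give of it, and the mature microRNAs were not measured here.

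miR-675-5p, chr7:142577112-142577133, minus strand: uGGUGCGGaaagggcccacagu
miR-675-3p, chr7:142577078-142577099, minus strand: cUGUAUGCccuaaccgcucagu

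The summed level of the 10 genes was lower at each later age, without overlap of libraries. It was 2712, 3311 and 3075 TPM in the E12.5 libraries, 1875, 2074 and 1945 TPM at P0, 445, 408 and 409 TPM at P14 and 285, 247 and 274 TPM at A6m. The gene with the highest level also changed. H19 led at E12.5 with 39.5% to 47.0% of the sum, Gpc3 led at P0 with 23.7% to 24.7%, Plagl1 led at P14 with 26.6% to 27.5%, and Dlk1 led at A6m with 32.7% to 37.5%. In whole tissue, fewer cells of a type and less RNA per cell cannot be told apart, which holds for each value given here.

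**Figure D1:**
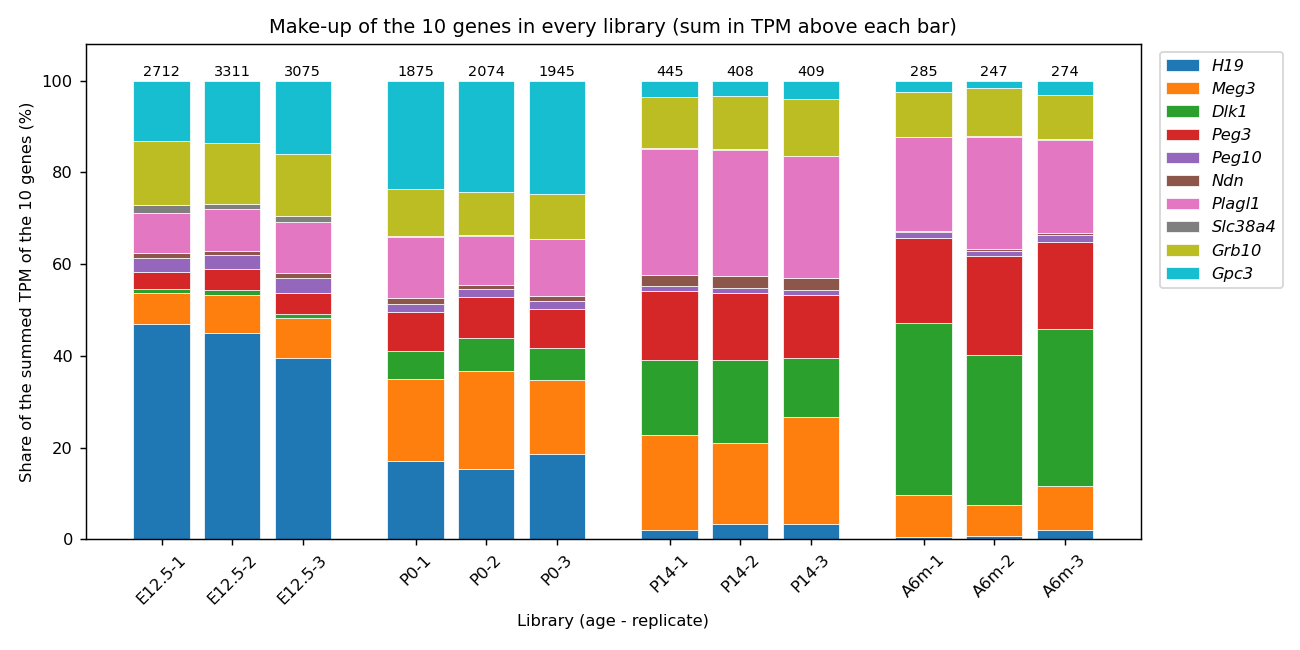
Share of the summed TPM of the 10 genes taken by each gene, in percent, for every library of E12.5, P0, P14 and A6m, with the sum in TPM above each bar. H19 takes 39.5% to 47.0% at E12.5 and Dlk1 takes 32.7% to 37.5% at A6m, while the sum falls to between 247 and 285 TPM at A6m.

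Differences between ages were tested with limma on log2(TPM + 1) over 17422 genes, and a gene was called at a Benjamini-Hochberg adjusted p under 0.05. A log2 difference on this scale understates the change of genes near 1 TPM. TPM adds up to the same sum in each library, and the median over all tested genes itself moved, by -0.27 at P0 against E12.5, -0.41 at P14 against P0, -0.04 at A6m against P14 and -0.71 at A6m against E12.5. Median-of-ratios scaling, which sets the typical gene to no change, was therefore run beside the values as deposited. With it the share of higher among all calls was 48.3%, 53.4%, 52.1% and 49.7% in these 4 comparisons, against 29.8%, 9.06%, 42.0% and 19.7% as deposited.

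At P0 against E12.5, 3 of the 10 genes rose (Meg3, Dlk1 and Peg3) and 6 fell (H19, Peg10, Ndn, Plagl1, Slc38a4 and Grb10), beside 18.6% of all tested genes called higher and 43.7% called lower. After scaling 4 rose and 4 fell, with Gpc3 added to the rises and Ndn and Plagl1 no longer called, beside 29% of all tested genes called higher and 31% called lower. With 10 genes these counts lie near the background, and nothing particular to the genes is read from them.

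At P14 against P0 all 10 genes fell, with no overlap between libraries of both ages, beside 53.5% of all tested genes called lower and 62.1% lower without overlap. Their median log2 difference was -1.71, against -0.41 over all tested genes. All 10 also fell after scaling, with a median of -1.21 against 0.00, where 19.8% of all tested genes were called lower. Higher calls were made for 5.33% of all tested genes as deposited.

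At A6m against P14, 7 of the 10 fell, beside 12.1% of all tested genes called lower and 8.78% called higher. Dlk1, Peg3 and Peg10 did not pass. After scaling 7 fell and Dlk1 rose, beside 14% of all tested genes called lower and 15.2% called higher. The median log2 difference of the 10 was -0.91 as deposited and -0.86 after scaling. Over all tested genes it was -0.04 as deposited and -6.81e-05 after scaling. Over the whole span, A6m against E12.5, 9 fell and Dlk1 rose, on both scales, beside 62% of all tested genes called lower and 15.2% called higher as deposited, and 35.8% and 35.4% after scaling. A moderated F-test over the 4 ages called all 10, beside 85.1% of all tested genes.

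**Figure D2:**
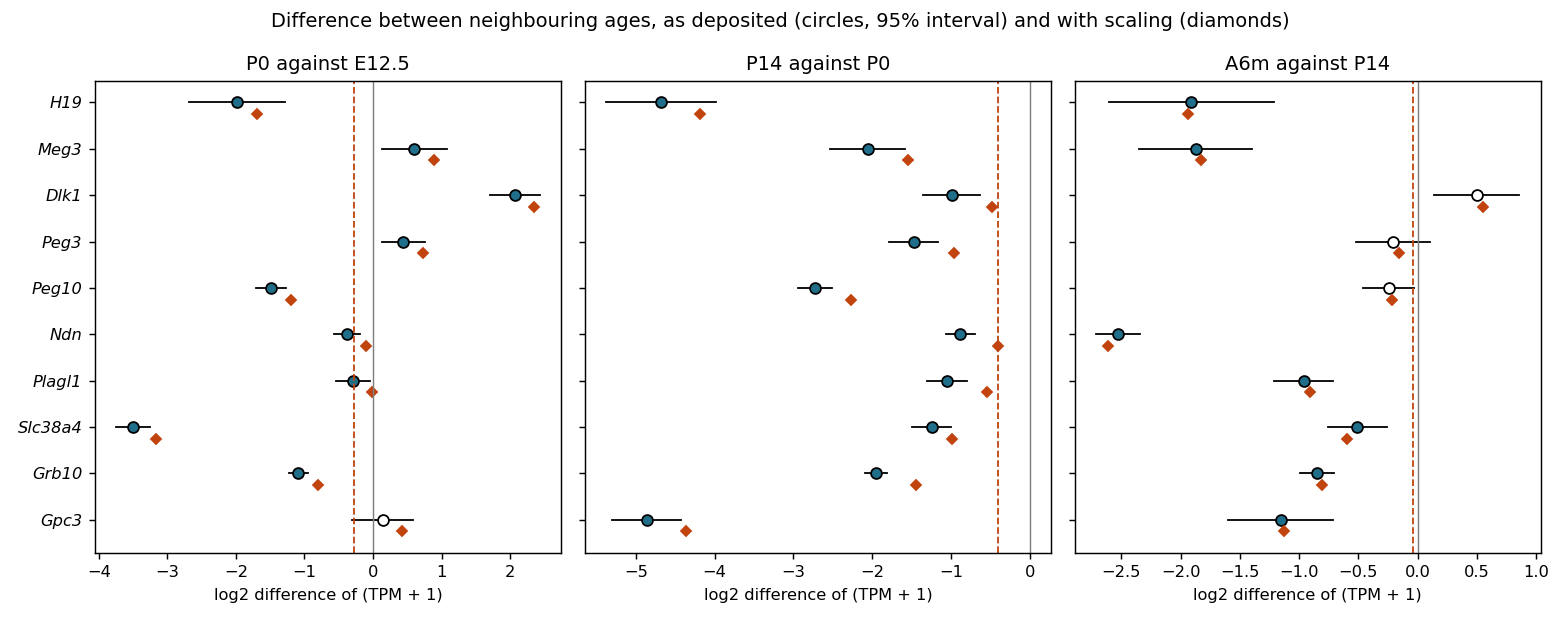
Log2 difference of (TPM + 1) for each gene in the 3 steps between neighbouring ages, with circles for the values as deposited (lines, 95% interval of limma; filled circles passed the adjusted p of 0.05, white circles did not) and diamonds for median-of-ratios scaling. The dashed line is the median of all tested genes as deposited; in the step P14 against P0 all 10 circles lie below it, from -0.88 for Ndn to -4.86 for Gpc3.

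H19, a maternally expressed RNA whose loss releases growth, had 1273, 1492 and 1214 TPM at E12.5, 320.3, 319 and 363 TPM at P0, 9.46, 13.1 and 13.99 TPM at P14 and 1.24, 1.83 and 5.61 TPM at A6m. Every library of each age lay below every library of the age before, and A6m replicate 3 stood above the other two adult libraries. H19 fell by 1.98 on the log2 scale at P0 against E12.5 (SE 0.32, limma adjusted p = 0.000241). It fell by 4.68 at P14 against P0 (adjusted p = 2.15e-06) and by 1.91 at A6m against P14 (adjusted p = 0.00161). The A6m mean was 0.218% of the E12.5 mean, and 0.116% without A6m replicate 3. Of all 17422 tested genes 3 had a lower log2 difference than H19 at A6m against E12.5. They were Hbb-y, Hba-x and Hbb-bh1, embryonic globin genes of red blood cells, named after their values were seen.

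Meg3, a maternally expressed RNA of the Dlk1 cluster with tumour-suppressor properties, did not follow H19 before birth. Its levels were 180.2, 275 and 266 TPM at E12.5, 335, 442 and 314 TPM at P0, 91.3, 72.3 and 95.1 TPM at P14 and 26.5, 16.7 and 26.2 TPM at A6m. The P0 libraries were the highest and overlapped no other age. Meg3 rose by 0.60 on the log2 scale at P0 against E12.5 (SE 0.22, limma adjusted p = 0.0308), a call that was lost without E12.5 replicate 1 or without P0 replicate 2 (adjusted p = 0.116 in both), with no filter on low values (adjusted p = 0.0629) and with array quality weights (adjusted p = 0.124). It then fell by 2.06 at P14 against P0 (adjusted p = 2.93e-05) and by 1.87 at A6m against P14 (adjusted p = 0.000150).

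Rian and Mirg, noncoding RNAs transcribed from the same cluster downstream of Meg3, shared its falls. Rian averaged 308 ± 27.9 TPM at E12.5, 314 ± 16.4 TPM at P0, 82.7 ± 5.14 TPM at P14 and 30.0 ± 3.82 at A6m (SD, n = 3 each). It was not called at P0 against E12.5 (log2 difference 0.03, limma adjusted p = 0.802) and fell by 1.91 at P14 against P0 (adjusted p = 5.56e-07) and by 1.44 at A6m against P14 (adjusted p = 4.69e-06). Mirg averaged 5.84 ± 1.23 TPM at P14 and 17.5 ± 3.51 TPM at P0 (SD, n = 3 each), a fall of 1.44 on the log2 scale (limma adjusted p = 0.000363), and it fell by 1.05 at A6m against P14 (adjusted p = 0.00745).

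Dlk1, a paternally expressed membrane protein related to Notch ligands that restrains differentiation, had its lowest level at E12.5. Its levels were 28.5, 36.3 and 27.1 TPM at E12.5, 115, 148 and 132 TPM at P0, 73.2, 73.6 and 52.3 TPM at P14 and 107, 80.7 and 93.4 TPM at A6m. E12.5 held the 3 lowest libraries, and the P14 libraries lay below both P0 and A6m without overlap. Dlk1 rose by 2.07 on the log2 scale at P0 against E12.5 (SE 0.16, limma adjusted p = 1.23e-06), a difference above that of 98.2% of all tested genes. At P14 against P0 it fell by 0.99 (adjusted p = 0.000488), and after scaling by 0.48 (adjusted p = 0.0359). The A6m mean of 93.6 ± 13.1 TPM stood above the P14 mean of 66.4 ± 12.2 TPM (SD, n = 3 each), a log2 difference of 0.50 that did not pass (limma adjusted p = 0.0532, unadjusted p = 0.0114). With scaling this difference was 0.55 (adjusted p = 0.0272). Dlk1 was called higher at A6m than at E12.5, by 1.58 (adjusted p = 3.98e-06), the only member with that call.

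**Figure D3:**
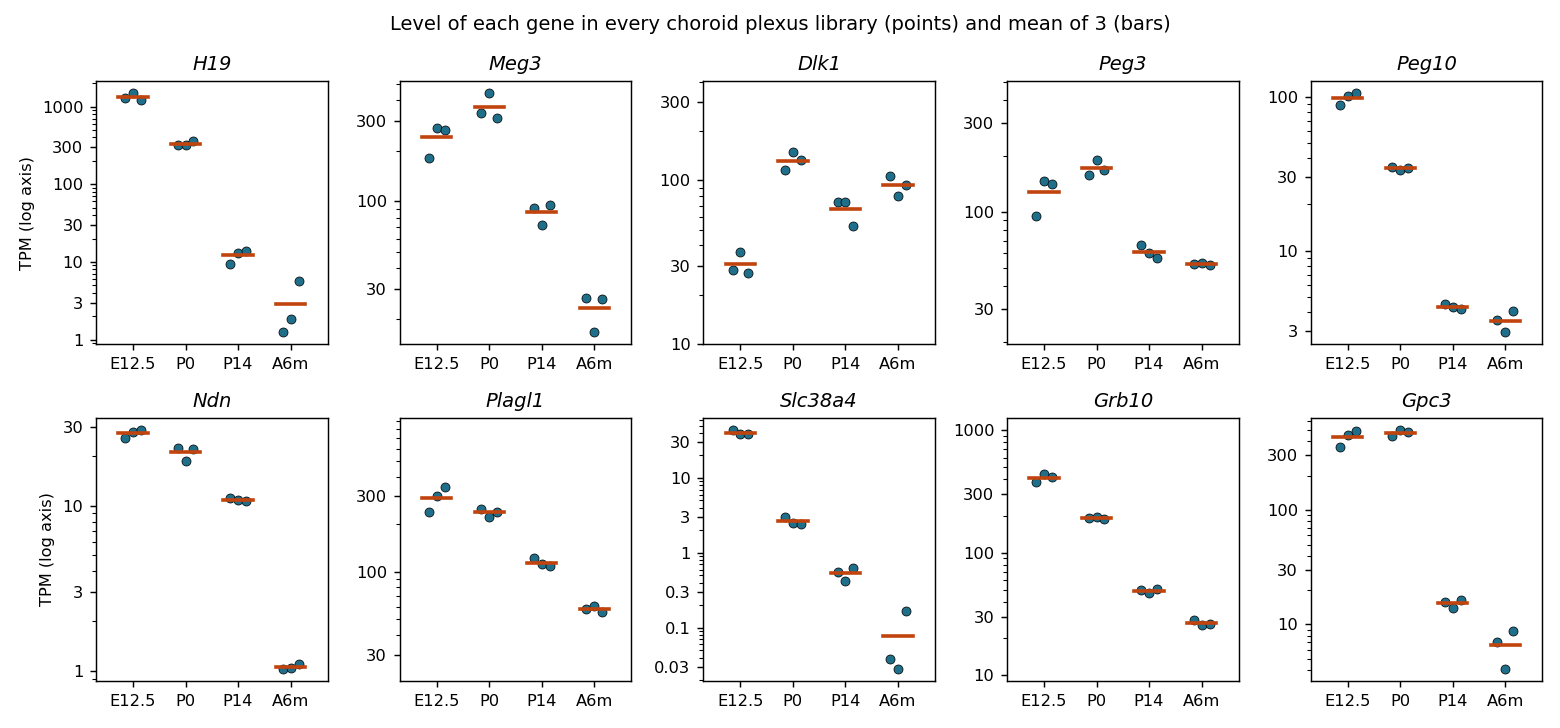
Level of each of the 10 genes in TPM (log axes with separate ranges) in every library of E12.5, P0, P14 and A6m (points), with the mean of 3 libraries (bars). H19, Peg10, Slc38a4 and Grb10 step down at P0 and again at P14, Meg3 and Peg3 peak at P0, Gpc3 holds until P0 and then drops to 14.01 to 16.3 TPM, and Dlk1 has its lowest libraries at E12.5.

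Gpc3, a heparan sulfate proteoglycan held on the cell surface by a lipid anchor that limits Hedgehog signalling, was among the most abundant of the 10 genes before P14. It had 357, 451 and 493 TPM at E12.5, 444, 504 and 479 TPM at P0, 15.8, 14.01 and 16.3 TPM at P14 and 7.001, 4.08 and 8.73 TPM at A6m. The libraries of E12.5 and P0 overlapped. Those of P14 lay below all of them, and those of A6m lay below P14. At P0 against E12.5 the log2 difference was 0.14 (95% interval -0.30 to 0.59, limma adjusted p = 0.556), and with scaling 0.43 (adjusted p = 0.0469). Gpc3 fell by 4.86 at P14 against P0 (adjusted p = 1.40e-07). Only Penk, which encodes the opioid precursor proenkephalin, and Klk4, which encodes a kallikrein protease, had a lower log2 difference in that step among all tested genes, and both were named after their values were seen. It fell by a further 1.15 at A6m against P14 (adjusted p = 0.00216). In that step and at P0 against E12.5 the levels of Xist and Ddx3y differed too, as given above, and their part in the level of this X-linked gene was not tested.

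Gpc4, the X-linked neighbour and a glypican of the other subfamily, moved in the opposite direction at P14. It had 17.8, 10.8 and 12.1 TPM at E12.5, 16.4, 16.5 and 16.7 TPM at P0, 34.9, 28.2 and 28.6 TPM at P14 and 18.7, 17.7 and 17.9 TPM at A6m. The P14 libraries were the highest, without overlap. Gpc4 rose by 0.84 at P14 against P0 (limma adjusted p = 0.000724) and fell by 0.72 at A6m against P14 (adjusted p = 0.00586).

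Among 18 tested genes of the glypicans and of heparan sulfate synthesis and trimming, 4 rose and 11 fell at P14 against P0 (6 and 10 after scaling), and 10 fell at A6m against P14 (10 after scaling, with 1 rise). Lower calls over all tested genes were 53.5% and 12.1% in these steps (19.8% and 14% after scaling). Higher calls were 5.33% and 8.78% (22.7% and 15.2% after scaling). The median log2 differences of the 18 genes were -0.70 and -0.40, against -0.41 and -0.04 over all tested genes. Gpc2, a glypican of the developing nervous system, averaged 1.08 ± 0.353 TPM at P0 and 16.6 ± 3.79 TPM at E12.5 (SD, n = 3 each), a fall of 3.07 on the log2 scale (limma adjusted p = 1.58e-07). Sulf2, which removes sulfate groups from heparan sulfate outside the cell, averaged 3.23 ± 0.260 TPM at A6m and 18.0 ± 1.43 TPM at P14, a fall of 2.17 (limma adjusted p = 1.36e-05). Sdc1, a syndecan, averaged 2.47 ± 0.121 TPM at A6m and 6.82 ± 0.741 TPM at P14 (SD, n = 3 each), a fall of 1.17 (limma adjusted p = 1.81e-05).

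Grb10, an adaptor that binds the insulin and IGF1 receptors and dampens their signal, fell in each step with little spread. It had 381, 441 and 415 TPM at E12.5, 192, 195 and 190.4 TPM at P0, 49.7, 46.9 and 50.7 TPM at P14 and 28.1, 25.9 and 26.2 TPM at A6m. No libraries of different ages overlapped. It fell by 1.09 on the log2 scale at P0 against E12.5 (SE 0.06, limma adjusted p = 1.49e-07), by 1.95 at P14 against P0 (adjusted p = 2.48e-08) and by 0.85 at A6m against P14 (adjusted p = 9.07e-06).

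The receptors and relatives of Grb10 did not all share this course. Of 14 tested genes of insulin and IGF signalling, 5 rose and 3 fell at P0 against E12.5 (9 and 1 after scaling), and 1 rose and 10 fell at P14 against P0 (2 and 5 after scaling). The shares over all tested genes in these steps were 18.6% higher and 43.7% lower (29% and 31% after scaling), and 5.33% higher and 53.5% lower (22.7% and 19.8% after scaling). Insr, the insulin receptor gene, averaged 30.8 ± 2.89 TPM at P0 and 14.97 ± 1.92 TPM at E12.5 (log2 difference 1.00, limma adjusted p = 2.73e-05), and 15.6 ± 2.03 TPM at P14. Igf1r, the IGF1 receptor gene, averaged 15.05 ± 1.64 TPM at P14 and 37.8 ± 2.40 TPM at P0, a fall of 1.28 (adjusted p = 9.05e-06). Grb14, the closest relative of Grb10, rose at P14 against P0, with 50.5 ± 1.93 TPM at P14 and 33.0 ± 2.85 TPM at P0 (log2 difference 0.60, adjusted p = 0.000464). Errors are SDs over 3 libraries.

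Slc38a4, a transporter of neutral and cationic amino acids known from placenta and liver, lost most of its level before birth. It had 44.0, 38.2 and 38.3 TPM at E12.5, 3.01, 2.48 and 2.44 TPM at P0, 0.549, 0.427 and 0.631 TPM at P14 and 0.0386, 0.0283 and 0.169 TPM at A6m. Each age lay below the one before without overlap, and the P14 and A6m values were under 1 TPM. It fell by 3.50 on the log2 scale at P0 against E12.5 (SE 0.11, limma adjusted p = 3.76e-09), by 1.24 at P14 against P0 (adjusted p = 1.19e-05) and by 0.51 at A6m against P14 (adjusted p = 0.00837). The last call was lost with a pseudocount of 5 (adjusted p = 0.221).

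Its relatives Slc38a2 and Slc38a3, also amino acid transporters, had other courses. Slc38a2 averaged 66.8 ± 6.11 TPM at E12.5, 32.7 ± 2.17 TPM at P0, 22.3 ± 3.68 TPM at P14 and 37.7 ± 2.39 at A6m. Slc38a3, a glutamine transporter, averaged 142 ± 4.81 TPM at P0 and 23.6 ± 7.47 TPM at E12.5, a rise of 2.59 on the log2 scale (SD, n = 3 each; limma adjusted p = 4.82e-07).

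Of the genes that act in the nucleus, Plagl1 encodes a zinc finger transcription factor that binds many imprinted genes. It had 239, 302 and 345 TPM at E12.5, 251, 223 and 239.5 TPM at P0, 122, 112 and 109 TPM at P14 and 58.2, 60.5 and 55.9 TPM at A6m. E12.5 and P0 overlapped, and the later ages were separate. The fall of 0.30 on the log2 scale at P0 against E12.5 passed as deposited (limma adjusted p = 0.0409) but was lost in 17 of 23 alternatives, and it was 0.01 after scaling (adjusted p = 0.919) and had adjusted p = 0.0646 with the replicate number as a block. Plagl1 fell by 1.05 at P14 against P0 (adjusted p = 3.48e-05) and by 0.96 at A6m against P14 (adjusted p = 0.000175). Its relatives Plag1 and Plagl2 also fell at P14 against P0, with means of 3.47 ± 0.404 and 3.55 ± 0.332 TPM at P14 and 10.9 ± 0.776 and 11.7 ± 0.936 TPM at P0 (SD, n = 3 each; limma adjusted p = 2.86e-05 for Plag1 and 1.54e-05 for Plagl2).

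Peg3, a large paternally expressed zinc finger protein, had 95.6, 147 and 141 TPM at E12.5, 159, 189 and 167 TPM at P0, 66.8, 60.3 and 56.3 TPM at P14 and 52.7, 53.0 and 52.1 TPM at A6m. The P0 libraries were the highest, without overlap, and those of P14 lay below them. Peg3 rose by 0.44 on the log2 scale at P0 against E12.5 (limma adjusted p = 0.0187). Without P0 replicate 2 that call did not pass (adjusted p = 0.0697), nor in a fit on only the 6 libraries compared (adjusted p = 0.0723). It fell by 1.47 at P14 against P0 (adjusted p = 1.74e-05) and had a log2 difference of -0.21 at A6m against P14 (adjusted p = 0.352). With A6m at 41.1% of its E12.5 level as deposited, Peg3 kept more of its embryonic level than any other member except Dlk1. Its log2 difference over this span was -1.24 as deposited and -0.40 after scaling.

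Ndn, a paternally expressed MAGE-family protein known for holding back cell division in neurons, had its largest change late. It had 25.6, 27.9 and 28.7 TPM at E12.5, 22.3, 18.6 and 21.8 TPM at P0, 11.1, 10.8 and 10.7 TPM at P14 and 1.03, 1.05 and 1.10 TPM at A6m. All 4 ages were separate. The fall of 0.38 on the log2 scale at P0 against E12.5 (limma adjusted p = 0.00254) was 0.10 after scaling and no longer passed (adjusted p = 0.375). Ndn fell by 0.88 at P14 against P0 (adjusted p = 1.71e-05) and by 2.53 at A6m against P14 (adjusted p = 5.36e-08), where 31 of all tested genes had a lower log2 difference. Other MAGE-family genes were Maged2, with 32.6 ± 1.73 TPM at A6m and 61.9 ± 6.45 TPM at P14, and Maged1, with 233 ± 10.4 TPM at A6m and 344 ± 3.11 TPM at P14 (SD, n = 3 each).

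Peg10, a gene derived from a retrotransposon that is needed for the placenta, fell in both steps up to P14. It had 88.1, 101 and 106 TPM at E12.5, 34.7, 33.3 and 34.6 TPM at P0, 4.54, 4.30 and 4.16 TPM at P14 and 3.56, 2.96 and 4.04 TPM at A6m. The ages did not overlap, although the gap between P14 and A6m was small. Peg10 fell by 1.49 on the log2 scale at P0 against E12.5 (limma adjusted p = 3.38e-07) and by 2.72 at P14 against P0 (adjusted p = 4.29e-08). At A6m against P14 the log2 difference was -0.25 (adjusted p = 0.108).

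Whether the change after birth differed from the change before birth was tested for each gene as (P14 against P0) minus (P0 against E12.5). A negative call was made for 9 of the 10 genes and a positive call for Slc38a4, beside 22.4% of all tested genes with a negative and 14.3% with a positive call. For Slc38a4 the value was 2.25 (limma adjusted p = 1.34e-05), since most of its fall came before birth. For Gpc3 it was -5.01 (adjusted p = 3.53e-06), for Dlk1 -3.06 (adjusted p = 1.98e-05) and for Ndn -0.50 (adjusted p = 0.0201), which was lost without P0 replicate 1 (adjusted p = 0.0986) or P0 replicate 3 (adjusted p = 0.0922). For Plagl1 it was -0.75 (adjusted p = 0.0120), and the call was lost without P0 replicate 1 (adjusted p = 0.0551). After scaling the Ndn call was lost (adjusted p = 0.159), which left 8 negative calls and 1 positive call, beside 19.3% negative and 22% positive over all tested genes. These 2 steps share the P0 libraries.

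The genes kept very different parts of their embryonic level, given here in TPM as deposited. Over this span the median log2 difference of all tested genes was -0.71. The scaling factors, by which TPM is divided, were 1.23 to 1.57 at E12.5 and 0.743 to 0.815 at A6m. After scaling each share would therefore be larger. At A6m the mean was 0.196% of the E12.5 mean for Slc38a4 (0.0832% without A6m replicate 3), 1.52% for Gpc3, 3.59% for Peg10, 3.87% for Ndn, 6.50% for Grb10, 9.62% for Meg3 and 19.7% for Plagl1, while Dlk1 stood at 306%. By comparison Igf2 averaged 1079.6 ± 16.9 TPM at E12.5, 1264 ± 54.6 TPM at P0, 1074 ± 93.1 TPM at P14 and 862 ± 46.6 at A6m (SD, n = 3 each), so its highest mean was 1.47 times its lowest. The same figure was 458 for H19 and 511 for Slc38a4. Both rest on A6m replicate 3, without which they were 862 for H19 and 1202 for Slc38a4.

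Ratios between a gene and its neighbour or relative do not depend on how a library is scaled, and they are given here as TPM over TPM. H19 over Igf2 was 1.23 ± 0.153 at E12.5, then 0.264 ± 0.0107 at P0, 0.0115 ± 0.00309 at P14 and 0.00341 ± 0.00284 at A6m (SD, n = 3 each). The A6m values were 0.00136, 0.00221 and 0.00666, the last in replicate 3. These neighbours are known to share enhancers in other tissues. Meg3 over Dlk1 was 7.90 ± 1.77 at E12.5, then 2.75 ± 0.330 at P0, 1.35 ± 0.427 at P14 and 0.245 ± 0.0373 at A6m. At A6m the order of the pair was thus the opposite of that at E12.5 and P0 in every library.

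Peg10 over Sgce, the neighbour that starts 98 bp away and encodes epsilon-sarcoglycan, was 1.67 ± 0.101 at E12.5, then 0.719 ± 0.0343 at P0, 0.147 ± 0.00334 at P14 and 0.130 ± 0.0139 at A6m. Ndn over Snrpn, a paternally expressed gene of the same region, was 0.487 ± 0.0441 at E12.5, then 0.329 ± 0.0299 at P0, 0.138 ± 0.00339 at P14 and 0.0107 ± 0.000416 at A6m. Gpc3 over Gpc4 was 34.2 ± 12.2 at E12.5, then 28.8 ± 1.70 at P0, 0.506 ± 0.0596 at P14 and 0.364 ± 0.128 at A6m. Slc38a4 over Slc38a2 was 0.608 ± 0.110 at E12.5, then 0.0809 ± 0.00737 at P0, 0.0240 ± 0.000983 at P14 and 0.00217 ± 0.00228 at A6m, where replicate 3 had 0.00481 and the other two libraries 0.000968 and 0.000743.

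Of the 18 comparisons of these 6 ratios between neighbouring ages, 16 had every library of the later age below every library of the earlier one on the log2(TPM + 1) scale. Single genes lower without overlap in the 3 steps numbered 7585, 10824 and 4508 of all 17422 tested. The share over ratios of other gene pairs was not computed. Each ratio has a member as its first gene, so this count largely repeats the falls given above. For each of the 16 the two-sided exact permutation test gave p = 0.1, the smallest that 3 against 3 libraries allow, and an adjusted p of 0.113 over the 18. The exceptions were Gpc3 over Gpc4 at P0 against E12.5 (exact p = 0.8) and at A6m against P14 (exact p = 0.2). With a pseudocount of 5, Slc38a4 over Slc38a2 at P14 against P0 had a log2 difference of 0.0094 in place of -0.70.

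**Figure D4:**
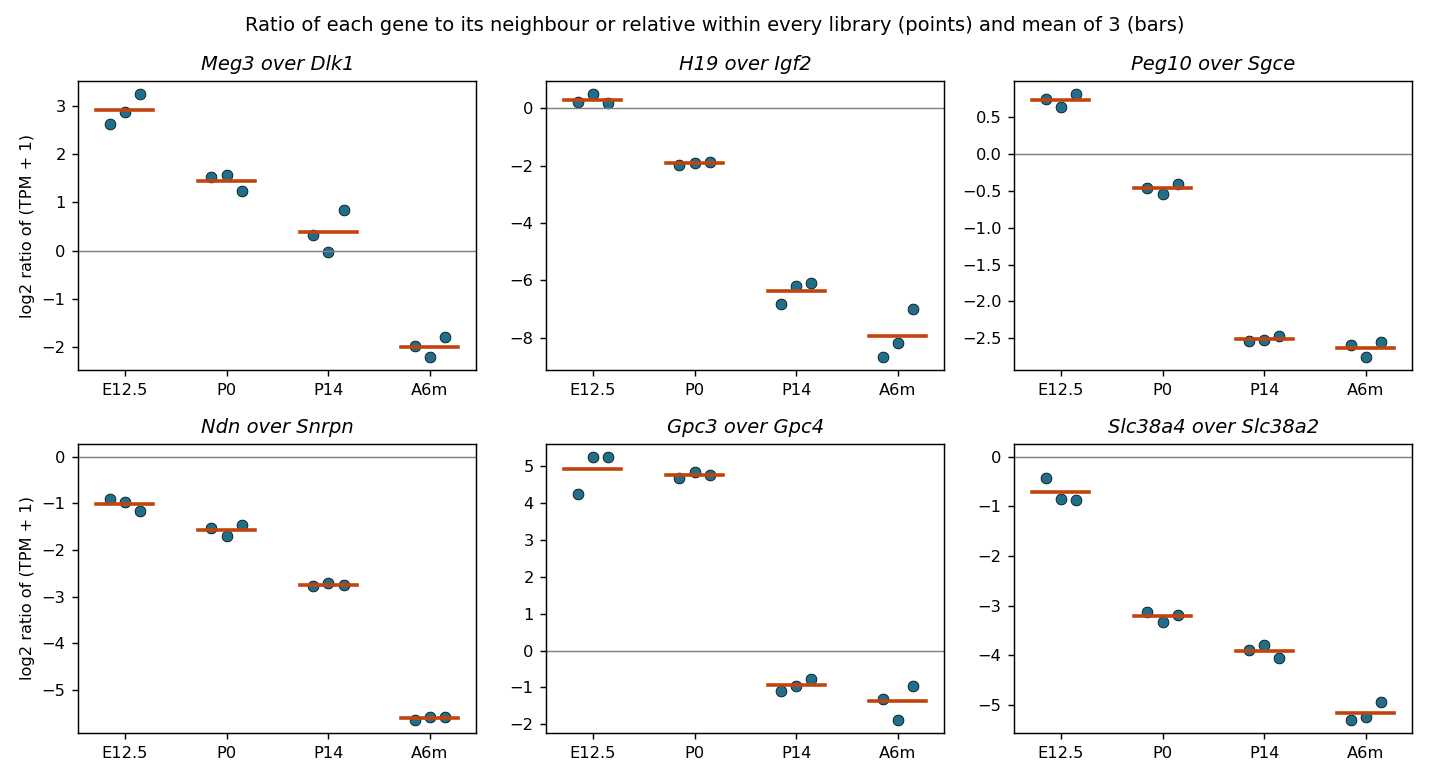
Log2 ratio of (TPM + 1) of each gene over its neighbour or relative within every library (points) of E12.5, P0, P14 and A6m, with the mean of 3 libraries (bars) and a line at 0, where both genes are equal. Meg3 over Dlk1 is above 0 at E12.5 and P0 and below 0 at A6m, and Gpc3 over Gpc4 changes side between P0 and P14.

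Other imprinted genes were called in both directions. Of 13 tested genes of the imprinted growth network besides the 10, 3 rose and 7 fell at P0 against E12.5. At P14 against P0 1 rose and 11 fell, and at A6m against P14 1 rose and 3 fell. Over all tested genes 18.6%, 5.33% and 8.78% were called higher in these steps, and 43.7%, 53.5% and 12.1% lower. After scaling 5 rose and 5 fell at P0 against E12.5 (29% of all tested genes higher, 31% lower). At P14 against P0 2 rose and 5 fell (22.7% higher, 19.8% lower), and at A6m against P14 1 rose and 3 fell (15.2% higher, 14% lower). With 13 genes the rises lie near these shares, and nothing particular to the list is read from them. The scaled median log2 differences of the list in the 3 steps were -0.09, -0.30 and -0.17. Mest, a paternally expressed hydrolase, averaged 1153 ± 33.5 TPM at E12.5, 439 ± 8.38 TPM at P0, 189 ± 2.76 TPM at P14 and 120.3 ± 7.46 at A6m, and it fell in all 3 steps (limma adjusted p of 1.29e-08, 2.60e-07 and 1.97e-05). Nnat, a paternally expressed membrane proteolipid, averaged 41.1 ± 14.4 TPM at P0 and 209 ± 57.1 TPM at E12.5, a fall of 2.34 on the log2 scale (adjusted p = 0.000733). Dcn, the proteoglycan decorin, averaged 176 ± 9.91 TPM at P0 and 43.9 ± 9.84 TPM at E12.5, a rise of 2.01 (adjusted p = 1.74e-06). Errors are SDs over 3 libraries, and Dcn is also a fibroblast marker.

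The other imprinted genes were also split by the parental copy described for mouse in general, which was not measured in this tissue. Of 20 tested genes described as paternally expressed, 3 rose and 14 fell at P14 against P0 (5 and 5 after scaling). Over all tested genes 5.33% were called higher and 53.5% lower (22.7% and 19.8% after scaling). Of 23 other genes described as maternally expressed 16 fell (after scaling 5 rose and 9 fell). Both medians, -0.57 and -0.54, lay near the -0.41 of all tested genes. Nap1l5, a paternally expressed relative of nucleosome assembly proteins, rose at P14 against P0, with 14.3 ± 0.660 TPM at P14 and 3.06 ± 1.20 TPM at P0, and again at A6m against P14, with 39.6 ± 0.744 TPM at A6m (SD, n = 3 each; limma adjusted p of 3.52e-05 and 0.000879). Cdkn1c, a maternally expressed inhibitor of cyclin-dependent kinases, averaged 128 ± 9.15 TPM at P14 and 246 ± 5.90 TPM at P0, a fall of 0.94 (adjusted p = 7.84e-06).

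A further list held 9 tested factors that keep methylation at imprint control regions or bind there. Of these 7 fell at P0 against E12.5 and 9 at P14 against P0 (5 and 3 after scaling). Over all tested genes 43.7% and 53.5% were called lower in these steps (31% and 19.8% after scaling). Zfp57, the zinc finger that recognises methylated TGCCGC, averaged 8.84 ± 1.16 TPM at P0 and 40.6 ± 5.99 TPM at E12.5 (log2 difference -2.08, limma adjusted p = 2.61e-07). Trim28, its corepressor, averaged 108 ± 10.9 TPM at P0 and 277 ± 71.9 TPM at E12.5 (log2 difference -1.33, adjusted p = 1.64e-05). Errors are SDs over 3 libraries.

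Of 12 non-imprinted genes described to fall with postnatal growth in other mouse organs, 10 fell at P0 against E12.5 and 8 at P14 against P0 (10 and 6 after scaling, with 1 rise in the later step), beside 43.7% and 53.5% of all tested genes called lower (31% and 19.8% after scaling). Their median in the test of the step after birth minus the step before birth was 1.08, against -1.57 for the 10 genes and -0.11 for all tested genes. Hmga2, an architectural chromatin protein, averaged 0.855 ± 0.128 TPM at P0 and 74.2 ± 10.3 TPM at E12.5 (log2 difference -5.33, limma adjusted p = 4.92e-10). Igf2bp3, an RNA-binding protein of Igf2 transcripts, averaged 0.259 ± 0.0965 TPM at P14 and 12.4 ± 1.14 TPM at P0 (SD, n = 3 each; log2 difference -3.41, adjusted p = 2.48e-08).

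The likeness of courses was measured as Pearson's r over the 12 libraries on the log2(TPM + 1) scale, among the 11297 genes whose mean level reached 5 TPM. The libraries share 4 ages, so that any gene that steps the same way scores high, and r is a description. Genes near H19 were Ssr2 (0.995) and Plekhg1 (0.994), and those nearest Meg3 were Tram2 (0.997), Cd276 (0.992) and Cttnbp2 (0.992). Dlk1 was nearest to Tns3 (0.975), Spock2 (0.972) and Gprc5b (0.969), and Peg3 to Rab11fip2 (0.992), Cfl2 (0.989) and Dazap2 (0.989).

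Peg10 was nearest to Igf2bp3 (0.999), Tbkbp1 (0.998) and Lmnb1 (0.997). Slc38a4 was nearest to the S-phase genes Tk1 (0.999) and Pclaf (0.999) and to Ankrd49 (0.998). Gpc3 was nearest to Ctdsp2 (0.997), H3f3b (0.996) and Arrdc4 (0.994), and Grb10 to Col5a1, Eml4 and Mpzl1 (0.997 each). For Ndn the nearest were Arhgap24 (0.994), Adamts5 (0.993) and Dnmt3a (0.991), and for Plagl1 they were Frem2 (0.996), Cntln (0.996) and Adamts9 (0.994). Among the 10 genes only H19 and Grb10 were within each other's 100 nearest genes. The r of Dlk1 with the other 9 ran between -0.73 and 0.03, and the r of all other pairs between 0.62 and 0.99.

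Summed levels of markers of stromal, vascular, blood and dividing cells also differed between the ages. At P0 against E12.5, 9 of 10 endothelial, 10 of 10 proliferation and 9 of 10 erythroid markers fell (9 of each after scaling). Over all tested genes 43.7% were called lower and 18.6% higher (31% and 29% after scaling). In the same step 11 of 12 epithelial markers rose (12 after scaling). The other erythroid marker, 1 in number, rose on both scales. Of 9 fibroblast markers 3 rose and 5 fell on both scales. Of 8 pericyte and smooth muscle markers 2 rose and 4 fell (3 and 3 after scaling). Of 9 macrophage markers 5 fell (4 after scaling), and of 7 neural progenitor markers 5 fell (5 after scaling, with 1 rise). Of 8 neuron markers 3 fell and 1 rose on both scales. The macrophage and neuron counts lie near the shares over all tested genes. The summed level of 10 fibroblast and matrix markers, with Dpt at 0 at E12.5 and at A6m, was 1319 to 1828 TPM at E12.5, 1012 to 1046 TPM at P0, 557 to 614 TPM at P14 and 282 to 356 at A6m. Of the 9 tested, 8 fell at P14 against P0 (after scaling 5 fell and 2 rose). Over all tested genes 5.33% were called higher and 53.5% lower in this step (22.7% and 19.8% after scaling). For 10 endothelial markers the sum was 468 to 512 TPM at E12.5, 244 to 332 TPM at P0, 91.8 to 121 TPM at P14 and 27.9 to 44.4 at A6m, and all 10 fell at P14 against P0 on both scales.

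The sum of 8 pericyte and smooth muscle markers was 157 to 239 TPM at E12.5, 98.3 to 117 TPM at P0, 79.4 to 112 TPM at P14 and 14.8 to 25.2 at A6m. At P14 against P0 1 of these rose and 4 fell (3 and 3 after scaling). In that step 5.33% of all tested genes were called higher and 53.5% lower (22.7% and 19.8% after scaling). For 10 proliferation markers it was 1028 to 1106 TPM at E12.5, 236 to 239 TPM at P0, 92.1 to 102 TPM at P14 and 71.6 to 78.2 at A6m. For 10 erythroid markers it was 53068 to 59354 TPM at E12.5, 6655 to 13503 TPM at P0, 777 to 909 TPM at P14 and 148 to 556 at A6m. Sums of 9 macrophage markers were 151 to 191, 97.0 to 114, 44.9 to 46.7 and 23.5 to 39.6 TPM at these ages, and sums of 8 neural progenitor markers were 1036 to 1552, 424 to 490, 131 to 147 and 66.5 to 76.3 TPM. For 9 neuron markers the sums were 46.8 to 195, 41.4 to 62.4, 41.4 to 56.7 and 27.4 to 31.4 TPM. The part of these cell types in the levels of the 10 genes was not tested.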

How the data were processed

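Values are TPM that the authors deposited per gene symbol, quantified with kallisto (version not given) on GRCm38 per the submitters' processing notes, from total RNA, Kapa mRNA libraries and 100 bp paired reads per the labels. TPM holds no read counts, so the depth of a library cannot be read from it and no counting interval is given. Of the table's columns 12 matched the labels of the 4 ages, and 7 further columns were not used.

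Genes with at least 1 TPM in at least 3 of 12 libraries (17422) were tested on log2(TPM + 1) with limma 3.58.1 in R 4.3.3 (4 group means, eBayes with trend, 8 residual degrees of freedom, Benjamini-Hochberg over all tested genes, adjusted p under 0.05), which was tested on simulated data. Each limma p-value sets a difference against the spread between these specimens, estimated over all 4 ages and moderated across genes. Named were the 10 genes, Igf2 and Gpc4, up to 4 called genes per list and comparison with the largest log2 difference (of which part is printed), and the 3 genes nearest each member, of which 1 is not reported here. Cdkn1c, Insr, Mirg and some other list members, and the neighbours Sgce and Snrpn, were named beyond that rule. Members and lists were chosen with earlier results of these data known. Coordinates came from GENCODE M21, in which 96.8% of tested symbols were found. Replicate numbers were not used to pair libraries in the main fit. Residual correlations of same-numbered libraries ran from -0.0778 to 0.108, over 0.1 in 1 of 18 pairs. Those of different-numbered libraries ran from -0.0707 to 0.0940, over 0.1 in 0 of 36 pairs. Such correlations cannot exclude a pairing. As alternatives the pseudocount was set to 0.1 or 5, the filter was dropped or raised to a mean of 5 TPM, and values were scaled by median of ratios, normalized by quantiles or rescaled with the top 10 genes removed. The fit was also run on the 6 libraries compared, with array weights, with the replicate block, with each library left out and with limma treat against a 1.5-fold difference.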

Additional observations from a re-analysis of the deposited data

How the results depend on the processing

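Of 50 results for single genes (10 genes in 5 contrasts), 36 kept their direction and side of the threshold under all 23 alternatives, 40 did so with treat left out, and none reversed. Genes that rose at P0 against E12.5 numbered 3 as deposited, 4 with median-of-ratios scaling, 2 with no filter, with only the 6 libraries compared or with array weights, 1 with treat and 1 to 3 with a library left out (1 without P0 replicate 2). Genes that rose at A6m against P14 numbered 0 as deposited (limma; Dlk1 had an unadjusted p of 0.0114) and 1 (Dlk1) with a mean of at least 5 TPM, with median-of-ratios scaling and with array weights, and 0 to 1 with a library left out (1 without E12.5 replicate 2 or A6m replicate 2). Genes that fell at A6m against P14 numbered 7 as deposited and 4 with treat. The cause of these changes was not tested. With the replicate block 3 rose and 5 fell at P0 against E12.5, Plagl1 being the call lost (adjusted p = 0.0646), and no other call of a member changed. The log2 ratio of Gpc3 over Gpc4 at P0 against E12.5 was -0.15 as reported and ran from -0.48 to 0.017 with a library left out (-0.48 without E12.5 replicate 1, 0.017 without E12.5 replicate 2 and 0.0092 without E12.5 replicate 3). That of Slc38a4 over Slc38a2 at P14 against P0 was -0.70 as reported and 0.0094 with a pseudocount of 5. TPM gives no depth, so the precision of values under 1 TPM, such as those of Slc38a4 from P14 on, is unknown. The A6m levels of H19 and Slc38a4 without single A6m libraries, and the epithelial sum without Ttr, were added after seeing the data.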
